A study of Mus musculus with 2 samples.

Results

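Bone morphogenetic protein (BMP) signaling and the inhibitor of DNA binding (Id) genes that it controls were followed in mESCs given LIF or LIF plus CHIR99021 (CHIR), through 10 genes chosen by name: the ligand gene Bmp4, the receptor gene Bmpr1a, the signal transducer genes Smad1 and Smad5, the inhibitor genes Smad6 and Bambi, and the target genes Id1, Id2, Id3 and Id4. Each was found under its own symbol, as 1 of the 30774 gene identifiers measured on each array. The cells carry the B6 strain label, with inner cell mass as source and the E3.5 embryo as stage. The cells were kept for 12 h in serum medium with LIF, a cytokine acting through Stat3, without or with CHIR, which inhibits the kinase GSK3. Every group therefore shares serum and LIF, and the labels give no CHIR dose. Total RNA was labelled with biotin and hybridized to Illumina mouse beadchips, 1 array per condition. With 1 culture on each side, differences were described without a test, and an effect of CHIR cannot be told apart from variation among cultures.

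BMP ligands bind paired type I and type II receptors on the cell surface, and the type I receptor then phosphorylates Smad1, Smad5 and Smad9 (also called Smad8). These join Smad4, enter the nucleus and switch on target genes, of which the Id genes are among the best known. Id proteins carry a helix-loop-helix but no DNA-binding region, so they capture basic helix-loop-helix (bHLH) factors and keep them from DNA. In mESCs, BMP acting with LIF is known to replace serum in supporting self-renewal, with Id genes as mediators. GSK3, the target of CHIR, is known both as the kinase that marks β-catenin for destruction and as a kinase of Smad1.

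The stretch upstream of the start site is shown for the ligand gene Bmp4 and for the Id genes with an entry in the RefSeq promoter table (build GRCm38.p6). Id1, the Id gene with the largest signal ratio below, had no entry and is not shown. Of the Id genes shown, Id2 and Id4 have no fold change in these data. Each line gives the 250 bases before the start, 5′ to 3′ in the direction of the gene. Capitals mark matches on either strand to GGCGCC, a palindrome known from BMP-responsive elements, or to CAGAC, a short Smad-binding sequence, which reads GTCTG on the other strand. The motifs were chosen with the expression values known, and no match overlapped another in any of the 10 promoters found for 8 members.
Id2, chr12:25096093-25096342 on the minus strand: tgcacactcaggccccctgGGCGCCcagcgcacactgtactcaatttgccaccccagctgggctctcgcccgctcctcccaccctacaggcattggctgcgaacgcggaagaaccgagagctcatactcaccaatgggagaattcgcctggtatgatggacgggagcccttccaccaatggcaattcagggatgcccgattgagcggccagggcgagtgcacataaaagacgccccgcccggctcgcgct
Id3, chr4:136143572-136143821 on the plus strand: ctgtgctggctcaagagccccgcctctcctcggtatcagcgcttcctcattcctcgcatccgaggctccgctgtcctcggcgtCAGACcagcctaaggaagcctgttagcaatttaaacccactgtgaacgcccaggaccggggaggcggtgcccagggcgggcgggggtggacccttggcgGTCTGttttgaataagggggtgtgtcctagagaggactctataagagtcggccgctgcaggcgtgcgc
Id4, chr13:48260866-48261115 on the plus strand: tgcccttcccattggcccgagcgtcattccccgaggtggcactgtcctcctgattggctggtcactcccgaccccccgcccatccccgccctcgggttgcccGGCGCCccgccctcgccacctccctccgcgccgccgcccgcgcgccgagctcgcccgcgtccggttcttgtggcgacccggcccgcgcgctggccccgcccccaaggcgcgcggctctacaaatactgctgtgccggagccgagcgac
Bmp4, chr14:46390670-46390919 on the minus strand: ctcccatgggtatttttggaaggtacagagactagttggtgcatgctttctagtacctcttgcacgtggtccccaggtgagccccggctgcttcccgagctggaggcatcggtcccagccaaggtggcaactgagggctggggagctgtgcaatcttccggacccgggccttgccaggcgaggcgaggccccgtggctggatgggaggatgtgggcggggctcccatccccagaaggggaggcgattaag
Id3 held 2 CAGAC matches and 0 of GGCGCC, whereas Id2 and Id4 each held 1 GGCGCC and 0 CAGAC. Bmp4 held 0 of both. Over the 10 promoters of the members, of which Smad5 has 3, GGCGCC was in 4 (Id2, Id4, Bmpr1a and 1 of Smad5) and CAGAC in 2 (Id3 and another of Smad5). The core that Tcf and Lef factors bind, CTTTGA, was also searched on both strands and had 0 matches in the 10. Among 32851 promoters of the same length, 9.59% held GGCGCC, 42.2% held CAGAC and 13.8% held CTTTGA. The member promoters were 60 to 78.8% G or C, which was not matched in these shares, and some of those of Smad5 overlap. No enrichment was tested.

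Of the 10 members, 0 reached the limit of 1.5-fold in either direction, and 4 had no fold change because neither array detected them. Over all 9615 identifiers detected on at least 1 array, 254 (2.64%) passed this limit as higher with CHIR and 277 (2.88%) as lower. An identifier was called detected on an array when its detection p-value, the comparison of its signal with the negative control beads, was under 0.01. By that limit 6 members were detected on at least 1 array and 4 of them (Bmp4, Id1, Id3 and Smad5) on both, while Id2, Id4, Smad1 and Bambi were detected on neither. Of the 6, 5 had the higher signal in LIF plus CHIR and 1 in LIF. Their median log2 signal ratio of LIF plus CHIR over LIF, with the value for Smad6 a bound, was 0.21. Over the 4 members detected on both arrays it was 0.35, as it was over the 6 without a minimum signal, and 0.00 was the median over all 8580 identifiers detected on both arrays. Among those 4, the ligand Bmp4 and the target Id1 had the largest ratios.

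**Figure D1:**
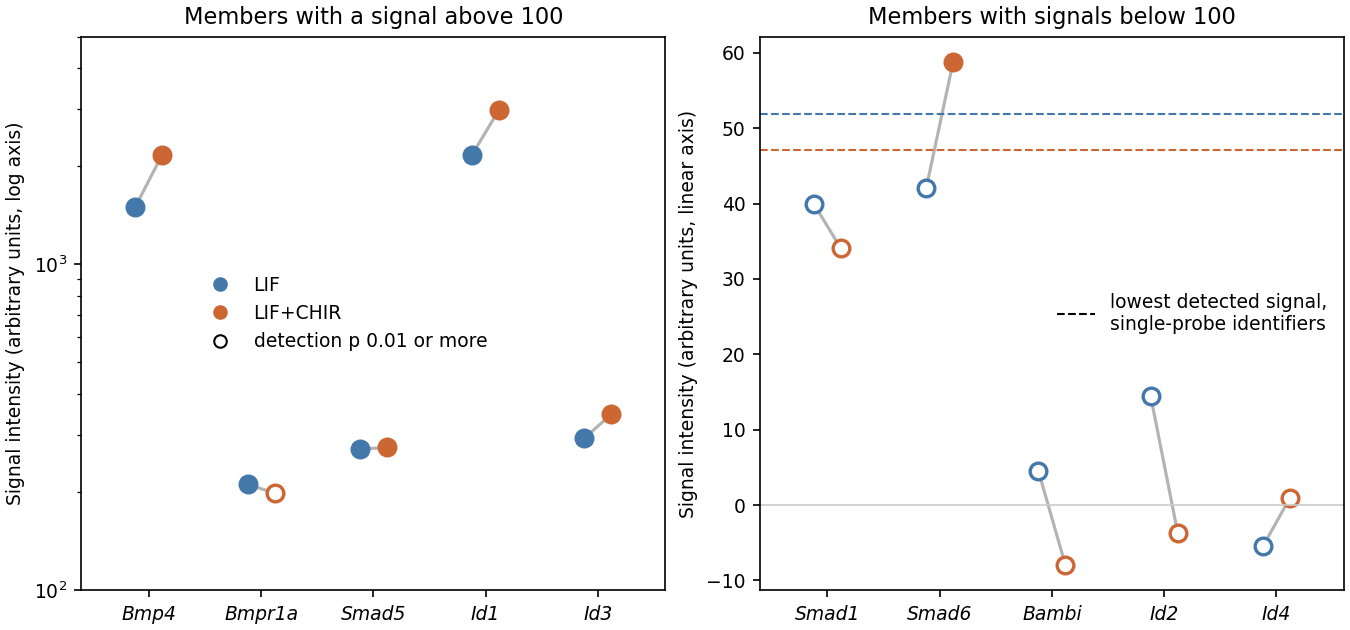
Signal intensity (arbitrary units) of the 10 members on the LIF array (blue) and the LIF plus CHIR array (orange), 1 array each, on a log axis for the 5 brighter members and a linear axis for the 5 dimmer ones; open circles had a detection p-value of 0.01 or more. Bmp4 and Id1 were higher with CHIR, Bmpr1a and Smad5 nearly level, and the dim members, apart from Smad6 with CHIR, lay below the lowest detected signals of single-probe identifiers (dashed, 51.9 in LIF and 47.1 with CHIR).

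Bmp4 encodes a secreted BMP ligand and lies on chromosome 14 in band 14qC1. Its signal was 1504 in LIF and 2174 with CHIR, with a detection p-value of 0 on both arrays, meaning that no control bead type was as bright. The signal was 1.45-fold higher with CHIR (log2 ratio 0.53), just under the limit. Bright identifiers varied little between the arrays, which gives a scale for this difference. Where the brighter of the 2 signals was 1000 or more, the log2 ratios of the 3211 identifiers detected on both arrays ran from -0.29 at the 5th percentile to 0.28 at the 95th percentile, and 1.19% of 3269 identifiers passed as higher. Among the 3243 identifiers of this range with a fold change, 1.54% had a log2 ratio as high as that of Bmp4 or higher. That range mixes measurement error with any real change, so it is not the spread between replicates.

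Of the receptor and its Smads, only Smad5 was detected on both arrays. Bmpr1a, the type I receptor gene for BMP ligands in early embryonic cells (chromosome 14, band 14qB), had a signal of 211.2 in LIF and 198.7 with CHIR. The detection p-values were 0.0031 and 0.061, so it counted as detected in LIF only. By its own signals it was 1.06-fold lower with CHIR (log2 ratio -0.09), a plain ratio and not a bound. Its p-values were not multiples of 1 over 936, the step set by the number of negative controls, so Bmpr1a was taken as measured by several probes with a combined p-value. Such p-values can be high at a bright signal. Of 8872 identifiers with a signal above 100, 658 had a p-value of 0.05 or more on both arrays, and 0 of the 658 had p-values in the single-probe steps.

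Smad5, a receptor-regulated Smad that carries the BMP signal to the nucleus (chromosome 13, band 13qB1), had a signal of 270.4 in LIF and 274.7 with CHIR. It was detected on both arrays, and the log2 ratio was 0.02. This was the smallest difference among the detected members. Smad1, the other member of this class (chromosome 8, band 8qC2), had 39.9 in LIF and 34.1 with CHIR. Its detection p-values of 0.012 and 0.010 lay just above the limit on both arrays, so no fold change is given. At a limit of 0.05 it would count as detected, with a log2 ratio of -0.23.

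Feedback inhibitors of the pathway were dim or undetected. Smad6, an inhibitory Smad that is itself a BMP target (chromosome 9, band 9qC), had a signal of 42.0 in LIF and 58.8 with CHIR, with detection p-values of 0.022 and 0.0032. Only the LIF plus CHIR signal was above the limit of detection. Against the lowest detected signal of single-probe identifiers in LIF (51.9), the CHIR signal of Smad6 was brighter by at least 1.13-fold (log2 ratio 0.18). The ratio of its own signals was 1.40 (log2 ratio 0.48, above that of Id1), with the LIF value inside the range of the negative controls. Of identifiers whose brighter signal was under 100, 26.3% of 1548 with a fold change had a log2 ratio as high as this bound of 0.18 or higher. The ratio of its own signals, 0.48, was just above the 95th percentile (0.47) of identifiers in that range detected on both arrays. That set leaves out genes detected on 1 array only, as Smad6 was, so the comparison is with an unlike set. Bambi, a receptor look-alike without a kinase that blocks BMP and activin signals (band 18qA1), had 4.51 in LIF and -7.95 with CHIR. Its detection p-values were 0.27 and 0.63, and it was below detection on both arrays.

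The 4 Id genes, whose products hold bHLH factors off DNA, fell into a detected pair and an undetected pair. Id1 (chromosome 2, band 2qH1) had a signal of 2174 in LIF and 2982 with CHIR. The detection p-value was 0 on both arrays. This was 1.37-fold higher with CHIR (log2 ratio 0.46), and 2.13% of the identifiers with a brighter signal of 1000 or more had a log2 ratio as high or higher. Id3 (chromosome 4, band 4qD3), the gene with the 2 CAGAC matches above, had 292.8 in LIF and 346.8 with CHIR. It was 1.18-fold higher (log2 ratio 0.24), between the 5th and the 95th percentile of identifiers with a brighter signal of 300 to 1000 (-0.42 to 0.43). Of those with a fold change, 13.0% of 2304 had a log2 ratio at least that high. Id1 thus lay above the 95th percentile of its brightness range and Id3 below that of its own.

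Id2 (chromosome 12, band 12qA1.3) had 14.4 in LIF and -3.64 with CHIR, with detection p-values of 0.063 and 0.50. Id4 (chromosome 13, band 13qA5) had -5.46 and 0.93, with 0.53 and 0.35. Both pairs of signals lay within the range of the negative controls, so neither gene has a fold change or a direction. An RNA below this detection limit is not shown to be absent.

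**Figure D2:**
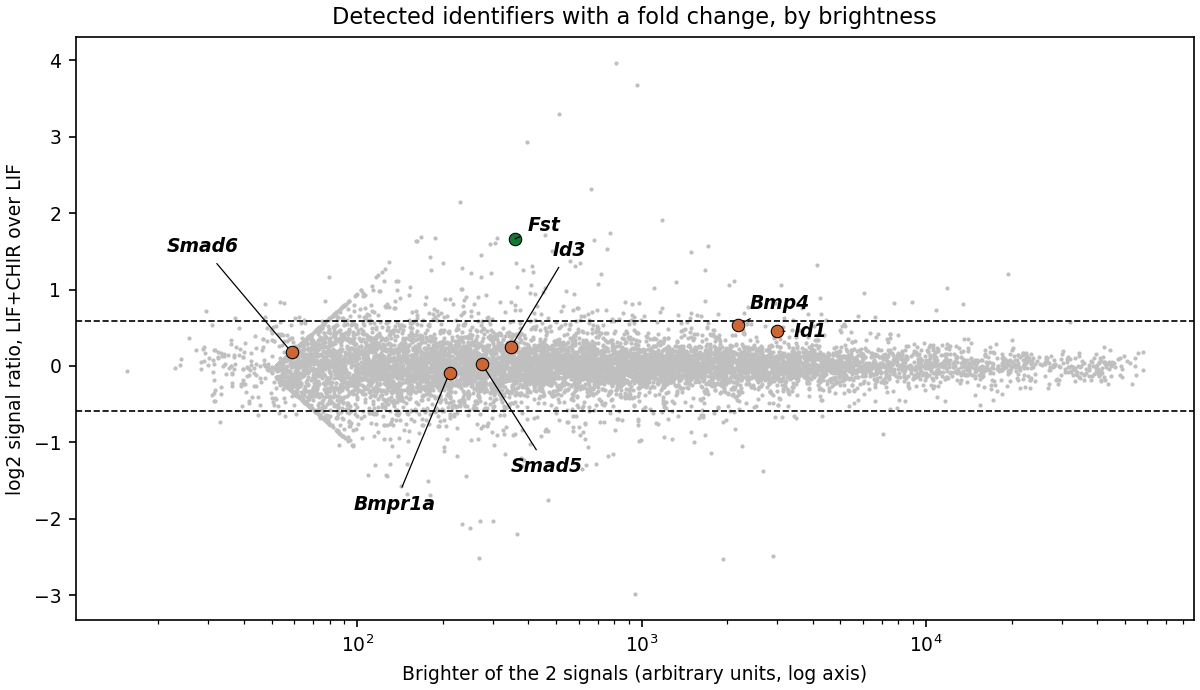
Log2 signal ratio of LIF plus CHIR over LIF against the brighter of the 2 signals (log axis) for each detected identifier with a fold change (grey), with the 6 detected members in orange and Fst in green; dashed lines mark 1.5-fold. The scatter narrows with brightness, so Bmp4 (0.53) and Id1 (0.46) sit at the upper edge of the grey cloud. Id3, Smad5, Bmpr1a and Smad6, the last plotted at its bound, sit inside it.

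The rest of the pathway was read from a list of 59 other genes, of which 56 were found on the array and 17 were detected on at least 1 array. Of these, 1 was at least 1.5-fold higher (Fst), 0 were at least 1.5-fold lower, and 3 dim genes (Bmp5, Gdf9 and Gdf5), each detected on 1 array, had no fold change because the detected signal did not exceed the minimum set for the other array. Over all 9615 identifiers detected on at least 1 array, 2.64% passed as higher and 2.88% as lower. Beside these shares, 1 gene of 17 is not a result about the pathway. The median log2 ratio of the 14 with a value was 0.08, close to that of all identifiers.

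Fst encodes follistatin, a secreted protein that binds activins and, less tightly, several BMPs. Its signal was 113.4 in LIF and 359.0 with CHIR, a 3.17-fold difference (log2 ratio 1.66) with a detection p-value of 0 on both arrays. Of identifiers with a brighter signal of 300 to 1000, 0.391% had a log2 ratio as high or higher. The other 2 detected antagonists differed in direction. Chrd, which encodes the BMP-binding protein chordin, had 256.7 in LIF and 173.7 with CHIR, 1.48-fold lower (log2 ratio -0.56). Among identifiers with a brighter signal of 100 to 300 and a fold change, 5.42% had a log2 ratio as low or lower. Fstl1, a follistatin-like secreted glycoprotein, had 1052 and 1490, 1.42-fold higher (log2 ratio 0.50). The other 11 antagonists on the list, among them Nog, Grem1, Cer1 and Bmper, were not detected on either array. Of the 11, Twsg1 was bright, with 679.0 in LIF and 767.2 with CHIR, but its combined detection p-values were above the limit.

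The 2 other ligand genes with a fold change differed less than Bmp4. Gdf3, a BMP-family ligand known from pluripotent cells, had 5716 in LIF and 5976 with CHIR (log2 ratio 0.06). Bmp8a had 77.9 and 83.0 (log2 ratio 0.09). Bmp2 and Bmp6 were detected on neither array, and neither was Bmp7. Among receptors, the type I receptor gene Acvr1 had 130.1 and 147.6 (log2 ratio 0.18) and the type II receptor gene Acvr2b 5517 and 4862 (log2 ratio -0.18), both detected on both arrays. Bmpr2, the type II receptor gene most closely tied to BMP ligands, had -3.80 and -1.80 and was not detected. The co-receptor gene Eng had 306.6 in LIF and 336.9 with CHIR (log2 ratio 0.14).

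Of the remaining Smads, Smad7 and Smad9 were not detected on either array, and Smad4 was not found under its gene number, symbol or older names. The modulators Smurf1 (log2 ratio -0.15), a ubiquitin ligase for Smads, Ppm1a (-0.15), a phosphatase, and Tob1 (0.06) all stayed within the limit. Zfp423, a zinc-finger partner of BMP Smads at target genes, had a signal of 627.3 in LIF and 452.8 with CHIR, 1.39-fold lower (log2 ratio -0.47). This lay below the 5th percentile (-0.42) of identifiers with a brighter signal of 300 to 1000. Of those with a fold change, 4.25% had a log2 ratio as low or lower. The target gene Hey1 had 221.5 and 238.8 (log2 ratio 0.11). Msx1, Msx2, Atoh8 and Dusp9, further genes known to respond to BMP, were not detected on either array. Tcf3, here the bHLH factor E2A that Id proteins bind and listed on the array as Tcfe2a, had 143.6 in LIF and 163.1 with CHIR (log2 ratio 0.18). The array entry called Tcf3 belongs to another gene (Entrez gene 21415) and was not used for it.

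**Figure D3:**
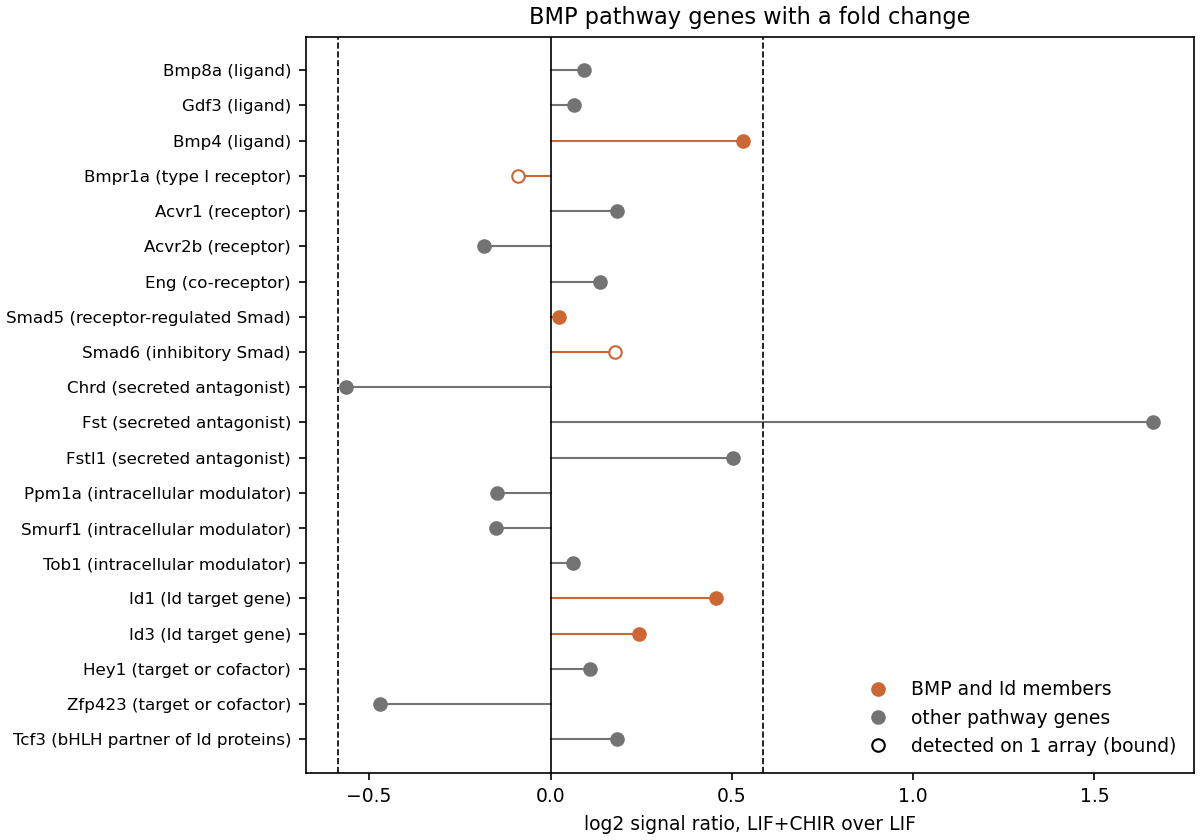
Log2 signal ratio of LIF plus CHIR over LIF for the members (orange) and other pathway genes (grey) with a fold change, grouped by role. Open circles were detected on 1 array, and dashed lines mark 1.5-fold. Of the open circles, Smad6 is a bound, while Bmpr1a, marked alike in the key, is the ratio of its own signals. Fst (1.66) is the only point beyond the lines, with Bmp4 (0.53) and Fstl1 (0.50) just inside on the right and Chrd (-0.56) just inside on the left.

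Facts of the whole arrays bear on these values. Pluripotency genes were bright, and 7 of 8 markers were detected on both arrays. Of the 7, 5 had the higher signal with CHIR, the median log2 ratio was 0.36, and the summed signal of the 8 was 40160 in LIF and 49219 with CHIR. Bright genes weigh most in that sum: Tfcp2l1 had 7658 in LIF and 13485 with CHIR, and Pou5f1 12346.5 and 11309.4. Tfcp2l1 passed 1.5-fold as higher (log2 ratio 0.82), Klf4 (0.58), Nanog (0.55), Esrrb (0.36) and Zfp42 (0.08) lay above 0, and Dppa3 (-0.04) and Pou5f1 (-0.13) below it. The 8th, Sox2, had signals of 441.2 and 400.2 with a combined p-value above the limit. The labels were checked on Wnt/β-catenin targets: Axin2 had 314.1 in LIF and 1178 with CHIR. Of 6 fibroblast markers 0 were detected, although Thy1 had signals of 222.3 and 225.3 with several probes. Summed signals, negative values taken as 0, were 247.0 and 245.2 for the fibroblast list and 120.5 and 106.0 for 5 primitive endoderm genes (1 detected, Sox7). For 4 neural genes they were 34.0 and 81.6. Of these only Nes was detected, with CHIR only and without a fold change. Among the undetected, Sox1 had -7.23 (counted as 0) and 28.9, and Pax6 was below 0 on both arrays. For 5 mesoderm genes the sums were 24.5 and 438.6, the last almost wholly T, with 8.05 and 394.5. In bulk RNA, more cells of a type and more RNA per cell cannot be told apart. The part of the mesoderm and pluripotency signals in the values of Bmp4, Id1 and Fst was not tested.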

How the data were processed

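Illumina mouse beadchips, 1 for mESCs in LIF and 1 for mESCs given CHIR as well, were grouped by the sample titles. The authors deposited a signal intensity on a linear scale for each gene identifier, already background-subtracted (11742 values below 0 in LIF, 11741 in LIF plus CHIR) and with nearly equal medians (10.5 and 10.4). The software and the normalization are not given in the sources used here. Beside every signal the authors deposited its detection p-value. A shorter table of 11702 identifiers, described as normalized, held the same values (0 differed).

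Python 3.11.15 with numpy 2.4.6 and pandas 2.3.3 gave the log2 ratios (CHIR array over LIF array), and matplotlib 3.10.9 the plots. Identifiers entered if the detection p-value was under 0.01 on either array (9021 were detected in LIF, 9174 in LIF plus CHIR). An undetected signal was set to the higher of its own value and the lowest detected signal of single-probe identifiers on its array. Where that minimum replaced the signal, the ratio is a bound. Of the detected identifiers, 378 had no ratio, because the detected signal did not exceed that minimum. P-values on both arrays in steps of 1 over 936 (tolerance 0.001 steps) were taken as 1 probe. With p-values of 0 the number of probes cannot be told. Of 100 entries in the gene lists, 82 were matched by Entrez gene number through RefSeq (GRCm38.p6), 14 by symbol and 1 by an older symbol. Signals of different genes were not compared, since probes differ in brightness. They were added only in the marker sums, where bright genes weigh most.

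Alternatives included normexp correction in limma 3.58.1 (R 4.3.3). The calculation was tested on simulated data, with large changes put into bright signals and the same detection p-values on both arrays. The simulation therefore did not cover the minimum signal, dim genes or planted differences near 1.5-fold. The members and lists were chosen with earlier results of these data known. Named genes were all members, pathway genes past 1.5-fold or detected, and Axin2. Genes named as not detected, the marker genes and the bright genes under other observations were named after their values were seen. With 1 array per condition, no difference was tested, and the number of arrays limits the precision.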

Additional observations from a re-analysis of the deposited data

How the results depend on the processing

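Detection by signal was chosen after seeing the data. No paired analysis was possible because only 1 array per condition was made. None of the 10 members passed the fold limit under any alternative run. For Bmp4, Id1, Id3 and Smad5, detected on both arrays, a changed detection rule, minimum, identifier set or fold limit could not alter the ratio. Only quantile normalization, scaling to equal medians and normexp could move it. The higher fold limit could not pass a member that missed the main one. In the main run, 2.64% of all detected identifiers passed as higher and 2.88% as lower. The log2 ratio stayed between 0.52 and 0.53 for Bmp4, 0.45 and 0.46 for Id1, 0.23 and 0.24 for Id3, 0.02 and 0.02 for Smad5, and -0.09 and -0.08 for Bmpr1a, which has no value with detection on both arrays. Smad6 ranged from 0.14 (normexp) to 0.48 (its own signals), and has no value with detection on both arrays either. The median over the members ranged from 0.18 under normexp to 0.35, reached without a minimum signal, with the minimum set over all identifiers, and when both arrays had to detect a gene.

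The counts over all identifiers moved more, from 254 higher and 277 lower. Detection at 0.05 gave 409 as higher and 445 as lower. Plain ratios from the shorter set of identifiers gave 680 and 684, and the 2-fold limit 64 and 45. Without a minimum signal 395 were higher and 392 lower, and with the minimum set over all identifiers (15.1 in LIF, 14.8 in LIF plus CHIR) 391 and 385. Of the other pathway genes, 1 passed as higher (Fst) under each alternative run, at 1.54 to 1.66. The ratio of Fst, detected on both arrays, could likewise move only under quantile normalization, scaling to equal medians and normexp. Of the lower ones, 0 became 1 without a minimum signal and with the minimum over all identifiers (Gdf5, -0.65), 1 with detection by signal (Skil, -0.67) and 2 with the plain ratios of the shorter set (Gdf5 and Msx1). The cause of the moves was not tested, beyond what each alternative itself changes: the identifiers admitted, the minimum signal or the fold limit. Signals near the negative controls limit Smad6, Smad1, Id2, Id4 and Bambi most.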

Other observations

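Some pathway genes had bright signals that the combined detection p-value did not call detected, and so have no place among the fold changes. They were picked after their values were seen. Twsg1, which encodes a secreted BMP-binding protein, had a signal of 679.0 in LIF and 767.2 with CHIR, with detection p-values of 0.40 and 0.14. Tcf4, a bHLH factor of the kind that Id proteins capture, had 739.9 in LIF and 902.6 with CHIR, with p-values of 0.20 and 0.12. The Smad corepressor genes had the opposite order of signals: Ski had 346.5 in LIF and 233.1 with CHIR, and Skil had 494.4 in LIF and 311.7 with CHIR. Their p-values lay between 0.20 and 0.50 on both arrays. The ratio of the signals with CHIR over those in LIF was 0.673 for Ski and 0.630 for Skil. All 4 genes were taken as measured by several probes, and the single probes are not resolved in the values used here.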
